A study of Mus musculus with 32 samples.

Results

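The difference in expression between fibroblasts carrying nuclear-export-tagged ACLY and fibroblasts carrying untagged ACLY was itself compared between 2 media, 10 mM and 1 mM glucose. For each gene the value described is (ACLY-Cyto minus ACLY WT in 1 mM) minus (ACLY-Cyto minus ACLY WT in 10 mM), on a log2 scale. It is called the difference between media below, and a positive value means that the gene stood higher in ACLY-Cyto, relative to ACLY WT, in 1 mM than in 10 mM. It was computed for the 11931 genes measured in both media, of 12913 measured in either, and rests on 15 of the 32 samples of the series.

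All cells were mouse embryonic fibroblasts with Acly knocked out. ACLY WT cells expressed human ACLY fused to mCherry, and ACLY-Cyto cells expressed the same fusion with a nuclear export sequence added. ACLY-Nuc cells carried added nuclear import sequences and knockout (KO) cells mCherry alone; these entered the fit for its estimate of spread. Cells were grown in serum-containing medium, washed, and kept for 24 hours in medium with 10 mM or 1 mM glucose. There were 4 ACLY WT samples in each medium, 4 ACLY-Cyto samples in 1 mM and 3 in 10 mM (replicates 1, 2 and 4), because the submitters left out replicate 3 as an anomaly. The labels do not say whether replicates were separate cultures or whether each line was a clone, so p-values measure only the spread between these samples. All 10 mM samples belonged to batch 2 and all 1 mM samples to batch 1, and the media were deposited as separately normalised tables. Batch and medium therefore cannot be told apart, and only construct effects formed within a medium are compared. A batch that acted on the constructs unequally would give the same difference between media, so the 2 cannot be told apart there either.

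ATP-citrate lyase (ACLY) cleaves citrate exported from mitochondria into acetyl-CoA and oxaloacetate. Its acetyl-CoA feeds fatty acid and sterol synthesis in the cytosol and serves as a substrate of protein acetylation in the cytosol and nucleus. Glucose is a main source of that citrate, and the acetyl-CoA synthetase ACSS2 can make the same product from acetate. The constructs were made to study where in the cell ACLY acts.

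Replicates of a group correlated at 0.970 to 0.990 over the shared genes, and the depth behind the values is not known. All 11 fibroblast markers were measured in both media. They summed to 4.49% to 4.63% of the expression total in ACLY WT and 3.74% to 4.08% in ACLY-Cyto in 10 mM, and to 5.9% to 6.78% and 3.46% to 3.79% in 1 mM. Measured markers of leukocytes, endothelium, epithelium, skeletal muscle, adipocytes and neural cells summed to at most 0.00653% per list in any of these libraries. The 13 mitochondrially encoded genes took 3.49% to 3.55% of the nominal total in ACLY WT and 3.74% to 4.4% in ACLY-Cyto in 10 mM, against 1.2% to 1.31% and 0.875% to 1.06% in 1 mM. The part of this share in the results was not tested. ACLY WT replicate 2 in 1 mM stood apart from its group more often than any other library among the genes named here. Without it 3698 genes were called, against 3545 with it, and 3190 were called both ways.

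The construct effect differed between the 2 media, and so between the 2 batches, for 3545 of 11931 genes (29.7%; limma, Benjamini-Hochberg adjusted p below 0.05). Of these, 1690 (14.2% of genes) had a higher and 1855 (15.5%) a lower difference between media. Over all genes the median difference was -0.01, and over called genes the median size was 0.64, against a median standard error of 0.17. The difference was at least 1, a 2-fold change, for 910 called genes, of which 453 were higher and 457 lower. Within a single medium, ACLY-Cyto differed from ACLY WT for 4033 of 12791 genes in 10 mM (31.5%; 15.9% higher and 15.6% lower). In 1 mM it differed for 6418 of 12053 genes (53.2%; 25.7% higher and 27.5% lower).

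The commonest pattern was a construct effect that passed the test in 1 mM and not in 10 mM. It was shown by 864 genes (51.1%) with a higher difference, which were higher in ACLY-Cyto in 1 mM, and by 837 genes (45.1%) with a lower one, which were lower in ACLY-Cyto in 1 mM. The next in number were 331 genes (19.6%) with a higher difference that were lower in ACLY-Cyto in 10 mM and not called in 1 mM, and 392 genes (21.1%) with a lower one that were higher in 10 mM and not called in 1 mM. A further 435 genes passed the test in both media in opposite directions, 171 of them lower in ACLY-Cyto in 10 mM and higher in 1 mM, and 264 the reverse. The ACLY-Cyto and ACLY WT libraries did not overlap in at least 1 medium for 3336 of the called genes and in both media for 1184. Both counts rest on the values that made the calls, and the share over all genes was not computed, so they add no support. Across genes, which are not independent replicates, the effects in the 2 media correlated with Pearson's r of 0.48 and Spearman's rho of 0.42.

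**Figure D1:**
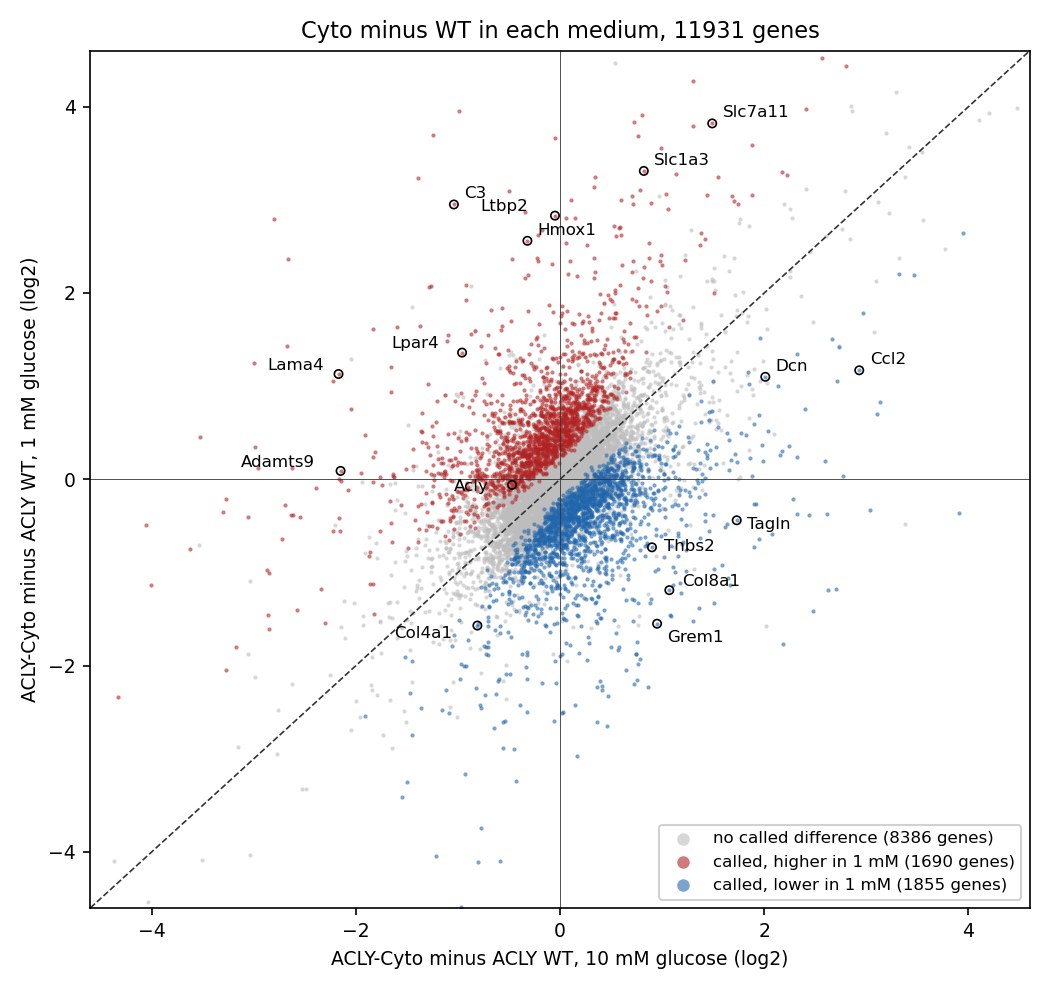
Each point is 1 of 11931 genes, placed by ACLY-Cyto minus ACLY WT (log2) in 10 mM glucose (x) and in 1 mM glucose (y), and the dashed line marks equal effects. Genes with a called higher difference (1690, red) lie above the line and those with a called lower one (1855, blue) below it; 19 genes lie outside the plotted range.

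Acly itself was read first, since it checks the labels of the KO samples. It cannot check which samples were ACLY WT and which ACLY-Cyto, as both expressed the fusion. The KO samples lay at 5.63 to 6.12 (log2 level) in 10 mM and 5.19 to 5.43 in 1 mM, below every construct sample. In 10 mM Acly stood at 10.18, 10.28, 10.24 and 10.14 in ACLY WT and at 9.89, 9.67 and 9.67 in ACLY-Cyto. In 1 mM it stood at 10.68, 10.43, 10.59 and 10.56 in ACLY WT and at 10.55, 10.55, 10.50 and 10.41 in ACLY-Cyto. The constructs were thus apart in 10 mM, where ACLY-Cyto was lower at -0.47 ± 0.10 (SE; adjusted p = 0.00157), and overlapped in 1 mM (-0.06 ± 0.07, adjusted p = 0.425). The difference between media was 0.41 ± 0.12 (adjusted p = 0.00967). How reads of the human construct were assigned to the mouse gene was not tested, so these values are a readout of the construct on the mouse gene model. The gap in construct level between the 2 lines was therefore not the same in the 2 media, and its part in the other results was not tested.

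Of 8 measured genes of acetyl-CoA supply, Acly included, 4 were higher and 1 was lower (2 without ACLY-Cyto replicate 1 in 1 mM). Acss2 lay at 3.75, 4.07, 3.75 and 3.72 in ACLY WT and 4.26, 3.67 and 3.69 in ACLY-Cyto in 10 mM, where the groups overlapped. With 1 mM glucose it lay at 2.58, 2.44, 2.46 and 2.87 in ACLY WT and at 3.78, 3.16, 3.52 and 3.77 in ACLY-Cyto, with no overlap. The difference between media was 0.92 ± 0.21 (adjusted p = 0.0013). Slc16a1, a monocarboxylate transporter that carries lactate, pyruvate and acetate, rose by 0.89 ± 0.11 (adjusted p = 3.85e-07). Slc33a1, which brings acetyl-CoA into the endoplasmic reticulum, rose by 0.70 ± 0.10 (adjusted p = 2.89e-06). Slc25a1, the mitochondrial citrate carrier, was the lower member, at 0.42 in 10 mM and 0.02 in 1 mM.

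The highest differences between media were led by C3 and Lama4. C3, the central complement component, stood at 6.36, 6.01, 6.09 and 6.00 in ACLY WT and 5.06, 5.22 and 4.93 in ACLY-Cyto in 10 mM. The 1 mM values were 5.87, 5.65, 5.98 and 5.99 in ACLY WT and 8.68, 8.90, 8.88 and 8.83 in ACLY-Cyto. ACLY-Cyto was thus the lower group in 10 mM and the higher one in 1 mM, with no overlap in either. The difference of 3.99 ± 0.43 (adjusted p = 3.01e-08) was the highest among called genes at or above the median level of shared genes whose groups were apart. In 10 mM alone the C3 effect of -1.04 had an adjusted p of 0.0595 in a fit whose spread is shared with the KO and ACLY-Nuc samples.

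Lama4, a laminin chain of basement membranes, fell from 6.83, 6.71, 6.78 and 6.52 in ACLY WT to 4.60, 4.50 and 4.52 in ACLY-Cyto in 10 mM. In 1 mM it was higher in ACLY-Cyto, at 7.75, 7.87, 7.78 and 7.71 against 6.80, 6.49, 6.78 and 6.54. Its effects were -2.17 in 10 mM and 1.13 in 1 mM, a difference of 3.30 ± 0.12 (adjusted p = 1.29e-17). Lpar4, a lysophosphatidic acid receptor, changed direction in the same way (-0.96 and 1.36, difference 2.32 ± 0.11), as did Ptx3, a secreted pentraxin (-1.35 and 0.71, difference 2.05 ± 0.13). Adamts9, a secreted metalloprotease, and Itga1, a collagen-binding integrin, were lower in ACLY-Cyto in 10 mM (-2.15 and -1.81). In 1 mM their groups overlapped (0.09 and 0.29). Slc1a3, a glutamate and aspartate transporter, was higher in ACLY-Cyto in both media and more so in 1 mM (0.82 and 3.31, difference 2.48 ± 0.16).

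The lowest differences between media included several extracellular regulators. Grem1, a secreted antagonist of bone morphogenetic proteins, lay at 8.60, 8.52, 8.59 and 8.56 in ACLY WT and 9.46, 9.52 and 9.58 in ACLY-Cyto in 10 mM. Under 1 mM glucose it lay at 8.83, 8.49, 8.80 and 8.75 in ACLY WT and at 7.04, 7.28, 7.14 and 7.21 in ACLY-Cyto. The groups did not overlap in either medium and their order was reversed, with a difference of -2.50 ± 0.10 (adjusted p = 1.90e-17). Col8a1, a short-chain collagen, showed the same reversal (1.07 and -1.19, difference -2.26 ± 0.14). So did Pmepa1, an inhibitor of TGF-beta signalling (0.65 and -1.30), and Thbs2, the matricellular protein thrombospondin 2 (0.90 and -0.73, difference -1.62 ± 0.10). Sertad4, Tmem119 and Ctxn1 also had opposite effects in the 2 media, with differences of -1.88 ± 0.11, -1.87 ± 0.15 and -1.91 ± 0.20. The lowest value belonged to the ribosomal pseudogene Rps6-ps4 (-4.27 ± 1.43, adjusted p = 0.0242). It is uncertain, since pseudogenes share reads with their parent genes and 1 ACLY WT library in 10 mM lay at -2.96 against 3.93 to 4.97 in the others. Without that library, replicate 2, the difference was -2.39.

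**Figure D2:**
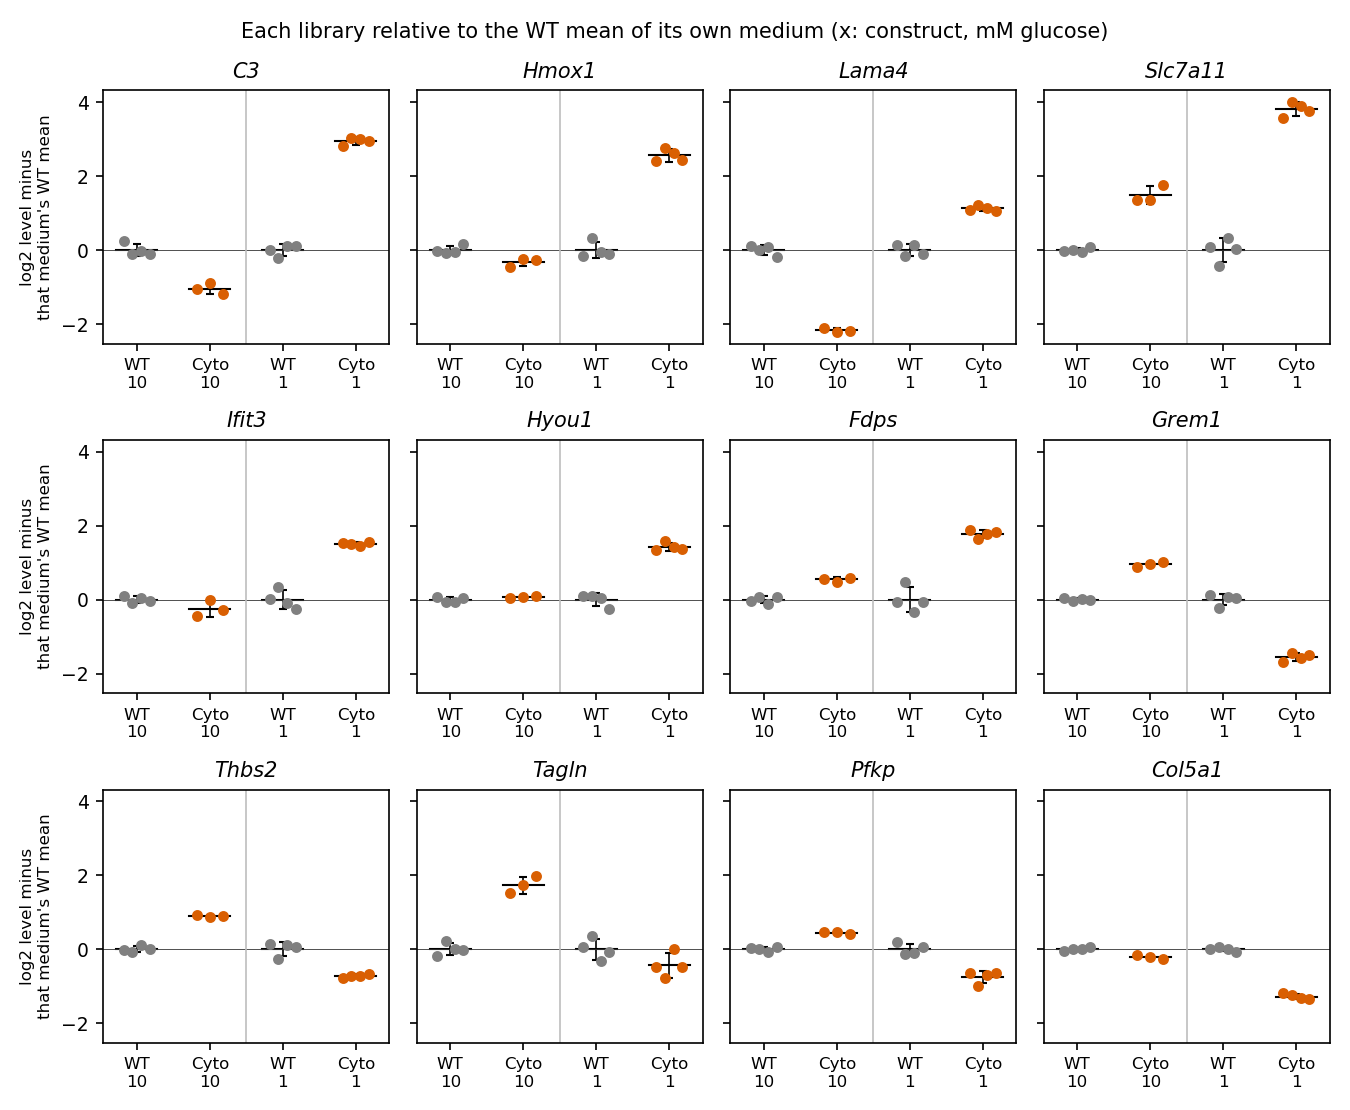
Each point is 1 library, given as its log2 level minus the mean of the ACLY WT libraries of the same medium (y), for ACLY WT (grey) and ACLY-Cyto (orange) in 10 and 1 mM glucose (x); lines are group means and bars 1 SD (n = 4, and n = 3 for ACLY-Cyto in 10 mM). C3 and Lama4 lie below ACLY WT in 10 mM and above it in 1 mM, and Grem1 and Thbs2 lie above it in 10 mM and below it in 1 mM.

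Genes were then read by function, in 45 lists. Each list is described by its counts and its median, beside the 14.2% of all genes called higher, the 15.5% called lower and the median of -0.01 over all genes.

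**Figure D3:**
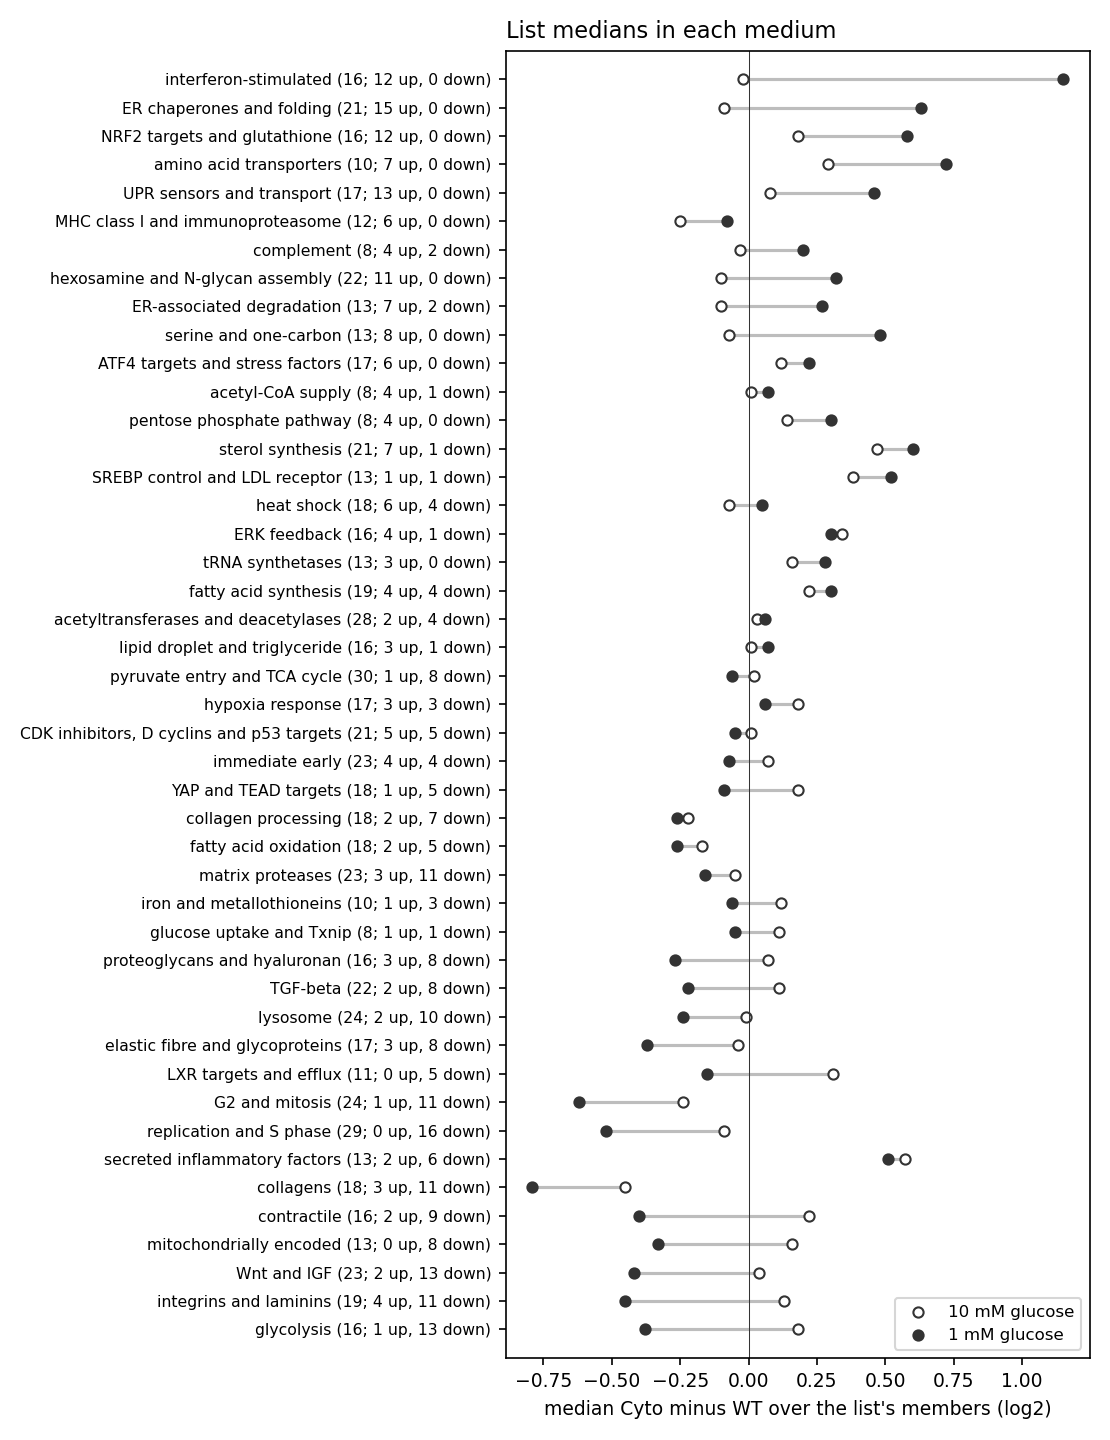
Each row is 1 of 45 gene lists, with the median ACLY-Cyto minus ACLY WT over its members (x, log2) in 10 mM (open) and 1 mM glucose (filled). Labels give the number of members measured and how many had a called higher (up) or lower (down) difference; rows are ordered by the median difference, from 1.24 for interferon-stimulated genes to -0.69 for glycolysis.

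Interferon-stimulated genes had the highest list median. Interferons bound by their receptors activate transcription factors, STAT2 and IRF9 among them, that bind the interferon-stimulated response element in the promoters of antiviral genes. Of 16 measured members 12 were higher and none was lower, and the median effect was -0.02 in 10 mM and 1.15 in 1 mM. Irf9, one of the factors, lay at 4.24, 4.22, 4.25 and 4.05 in ACLY WT and 3.96, 4.05 and 4.13 in ACLY-Cyto in 10 mM, where the groups overlapped. In the 1 mM medium it lay at 5.01, 5.21, 5.00 and 4.98 in ACLY WT and 5.94, 5.87, 5.79 and 5.82 in ACLY-Cyto, with no overlap. The difference was 0.94 ± 0.12 (adjusted p = 7.36e-07). Stat2 rose by 0.66, while Irf1, which acts downstream of interferon gamma, had a difference of -0.20 that did not pass the test.

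Effector genes of the response rose as well. Ifit3, which binds viral RNA complexes, lay at 3.35, 3.14, 3.28 and 3.19 in ACLY WT and 2.79, 3.22 and 2.97 in ACLY-Cyto in 10 mM, where the groups overlapped. In 1 mM ACLY-Cyto lay at 6.10, 6.08, 6.04 and 6.13, above all ACLY WT libraries at 4.59, 4.91, 4.50 and 4.32. The difference was 1.75 ± 0.22 (adjusted p = 3.49e-07). Ifit1 had a difference of 2.18 ± 0.31 (adjusted p = 3.25e-06), Usp18, which removes ISG15 from proteins, 2.65, and the guanylate-binding proteins Gbp3 and Gbp2 2.06 and 1.61. These genes were expressed at a low level in 10 mM. Over both constructs Ifit1 lay there at 0.62 to 1.60, Usp18 at -0.62 to 1.60, Gbp3 at -0.95 to 1.36 and Gbp2 at -0.13 to 1.69. Gbp2 had a difference of 1.04 when 1 was added on the linear scale. The Gbp3 call was lost without ACLY WT replicate 3 in 10 mM (1.87) and without ACLY-Cyto replicate 1 (1.78) or 2 (1.82) in 10 mM. The Ifit and Gbp genes belong to families of similar copies, so reads may be shared among them. Relative to KO cells, the list's median in 1 mM was 0.24 in ACLY WT and 1.14 in ACLY-Cyto, and in 10 mM it was -0.04 and -0.14.

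Promoters of the list's members were read for the interferon-stimulated response element. The motif was GAAANNGAAA, on either strand, in the 250 bases before the RefSeq start sites (build GRCm38.p6, whereas the tables were made on GRCm39). It was present in 6 of the 10 members called higher that had a promoter entry, in neither of the 2 other members with one, and in 3.13% of the 9205 shared genes with an entry. A match describes letters, not binding, and overlap with other motifs was not searched. The list was made from known genes of this response, so a motif share above that of all genes is a trait of the list and no result of these data. The same holds for the lists and motifs read below. The 3 members with the smallest adjusted p that hold it are shown, with the motif in capitals, from 186 bases before the start for Ifit3 (chr19:34583343-34583412, plus strand), 134 for Ifit1 (chr19:34640755-34640824, plus strand) and 250 for Stat2 (chr10:128270248-128270317, plus strand). In each the marked motif reads on the strand opposite to the gene. Only the most upstream match of a promoter entry is in capitals, here and below. The Ifit1 stretch holds another match on the same strand, left in lower case after the marked one.
Ifit3: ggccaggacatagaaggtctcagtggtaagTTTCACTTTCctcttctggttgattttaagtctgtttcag
Ifit1: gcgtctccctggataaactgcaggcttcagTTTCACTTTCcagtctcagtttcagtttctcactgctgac
Stat2: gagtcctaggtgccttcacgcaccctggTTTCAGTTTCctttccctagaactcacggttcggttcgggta

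Genes of antigen presentation also had higher differences, for the most part from lower values in 10 mM. Of 12 measured genes of MHC class I and the immunoproteasome, 6 were higher and none was lower, with median effects of -0.25 in 10 mM and -0.08 in 1 mM. Psmb9, a catalytic subunit of the immunoproteasome, lay at 3.08, 3.12, 3.09 and 3.18 in ACLY WT and 0.76, 0.90 and 1.24 in ACLY-Cyto in 10 mM. At 1 mM glucose it lay at 2.17, 2.03, 1.53 and 2.07 in ACLY WT and 1.99, 1.67, 2.00 and 2.05 in ACLY-Cyto, where the groups overlapped. The difference of 2.13 ± 0.27 (adjusted p = 5.46e-07) thus came with a deficit in 10 mM that was not detected in 1 mM. Tap1 and Tap2, which carry peptides into the endoplasmic reticulum, showed -1.25 and -0.99 in 10 mM and -0.24 and -0.14 in 1 mM. H2-Q4 was instead higher in ACLY-Cyto in 1 mM (0.53 and 2.72, difference 2.19 ± 0.25, adjusted p = 7.83e-08), and H2-K1 was higher in both media (1.55 and 3.24, difference 1.70). The H2-K1 call was lost without ACLY-Cyto replicate 2 in 10 mM (1.18), and the gene was expressed at a low level there, at -0.82 to 2.47 over both constructs. H2-Q4 was also low in 10 mM, at 0.97 to 1.88 over both constructs. Class I heavy chain genes are near-identical copies, so the split of reads between them is uncertain. B2m, the shared light chain, was lower in both media (-0.26 and -0.31), with no called difference.

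Targets of NRF2, the transcription factor of the oxidative and electrophile stress response, and glutathione genes rose as a list. Of 16 measured members 12 were higher and none was lower, and the median effect was 0.18 in 10 mM and 0.58 in 1 mM. Hmox1, which degrades heme, lay at 6.45, 6.39, 6.44 and 6.65 in ACLY WT and 6.03, 6.24 and 6.22 in ACLY-Cyto in 10 mM. In 1 mM it lay at 8.02, 8.50, 8.11 and 8.07 in ACLY WT and 10.58, 10.93, 10.81 and 10.62 in ACLY-Cyto. ACLY-Cyto went from slightly below ACLY WT to well above it, a difference of 2.88 ± 0.13 (adjusted p = 1.25e-15).

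The genes of cystine uptake and glutathione synthesis rose together. Slc7a11, the cystine carrier of the cystine and glutamate exchanger, lay at 2.31, 2.35, 2.28 and 2.41 in ACLY WT and 3.68, 3.69 and 4.10 in ACLY-Cyto in 10 mM. With 1 mM glucose it lay at 4.11, 3.60, 4.37 and 4.06 in ACLY WT and at 7.61, 8.04, 7.94 and 7.81 in ACLY-Cyto. ACLY-Cyto was above ACLY WT in both media, by 1.49 in 10 mM and 3.82 in 1 mM, and the difference was 2.33 ± 0.21 (adjusted p = 8.19e-10). Gclc and Gclm, the subunits of the first enzyme of glutathione synthesis, had differences of 1.33 ± 0.10 (adjusted p = 1.52e-11) and 1.52 ± 0.17 (adjusted p = 7.34e-08). Nqo1, a quinone reductase often used as an NRF2 target, was lower in ACLY-Cyto in both media but less so in 1 mM (-1.21 and -0.52). Nfe2l2, which encodes NRF2, and Keap1, its inhibitor, had differences of 0.02 and 0.28 that did not pass the test. With library weights Keap1 passed (0.29, adjusted p = 0.0319 by limma).

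The antioxidant response element, TGACNNNGC on either strand, was read in the same way. It was present in 3 of the 7 members called higher that had a promoter entry, in 1 of the 4 others (Nfe2l2), and in 14.0% of all shared genes with one, so this short motif is common. The 3 members are shown with the motif in capitals, from 164 bases before the start for Gclm (chr3:122245393-122245462, plus strand), 122 for Txnrd1 (chr10:82859084-82859153, plus strand) and 87 for G6pdx (chrX:74428898-74428967, minus strand). All read on the strand opposite to the gene. G6pdx was called with a difference of 0.38 ± 0.15 (adjusted p = 0.0476) that lay near the threshold and was lost when any of 9 libraries was left out.
Gclm: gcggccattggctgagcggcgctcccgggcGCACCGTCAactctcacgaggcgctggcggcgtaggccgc
Txnrd1: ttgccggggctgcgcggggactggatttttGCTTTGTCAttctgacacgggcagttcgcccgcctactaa
G6pdx: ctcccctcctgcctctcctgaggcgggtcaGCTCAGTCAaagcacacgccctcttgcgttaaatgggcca

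Amino acid supply moved in the same direction. Of 10 measured amino acid transporters, Slc7a11 among them, 7 were higher and none was lower, with medians of 0.29 in 10 mM and 0.72 in 1 mM. Without ACLY WT replicate 2 in 1 mM 1 was lower. Slc1a5, which imports glutamine, overlapped between constructs in 10 mM (6.93, 6.93, 6.97 and 7.13 in ACLY WT and 7.12, 7.10 and 6.92 in ACLY-Cyto). The 1 mM values were 7.66, 7.68, 7.63 and 7.78 in ACLY WT and 8.73, 8.67, 8.66 and 8.62 in ACLY-Cyto, with a difference of 0.93 ± 0.09 (adjusted p = 9.49e-09). Slc7a5, a carrier of large neutral amino acids, changed from -0.22 to 0.41 (difference 0.62 ± 0.08, or 0.93 after quantile normalisation), and Slc3a2, its heavy chain partner, from 0.11 to 0.94.

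Serine, proline and one-carbon enzymes rose in 8 of 13 measured members, and none was lower. When ACLY WT replicate 2 or 4 or ACLY-Cyto replicate 1 in 10 mM was left out, 1 was lower. Pycr1, which makes proline, was lower in ACLY-Cyto in 10 mM (-0.54) and higher in 1 mM (0.67), a difference of 1.21 ± 0.14 (adjusted p = 8.87e-08). The mitochondrial folate enzymes Mthfd2 and Aldh1l2 had effects near zero in 10 mM (-0.07 and -0.02) and of 0.70 and 1.26 in 1 mM. Phgdh, the first enzyme of serine synthesis, rose by 0.55. Psph, the last, had a difference of 0.65 ± 0.24 (adjusted p = 0.0382) that was lost when any of 7 libraries was left out. Psat1 and Shmt2, at 0.02 and 0.19, did not pass the test, though Shmt2 passed without ACLY WT replicate 2 in 1 mM (0.27). Among 17 targets of ATF4 and other stress factors, 6 were higher and none was lower. These included the stress transcription factor Atf3 (0.70 and 1.94, difference 1.24 ± 0.23), the phosphatase subunit Ppp1r15a (0.22 and 1.36, difference 1.14 ± 0.25) and the stress hormone Gdf15 (-1.17 and 0.18, difference 1.35 ± 0.22). Of 13 tRNA synthetase genes 3 were higher and none lower. Without ACLY WT replicate 2 in 1 mM 6 were higher, and without ACLY-Cyto replicate 2 in 10 mM 1 was lower.

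**Figure D4:**
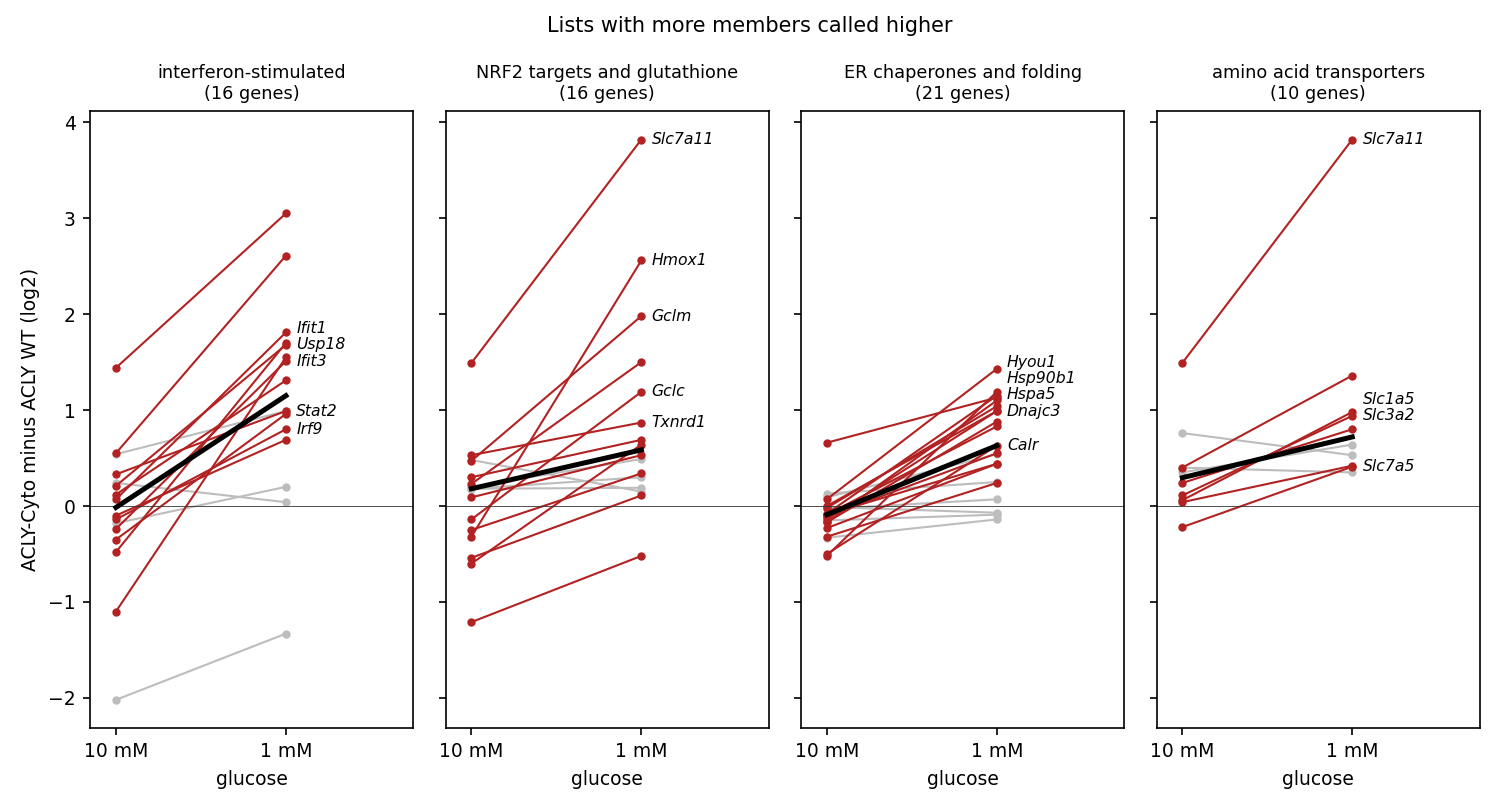
Lines join each member's ACLY-Cyto minus ACLY WT (y, log2) in 10 mM and 1 mM glucose (x) for 4 lists; red lines are members called higher, grey lines members not called, and the black line is the list's median. The median goes from -0.02 to 1.15 for interferon-stimulated genes, from 0.18 to 0.58 for NRF2 targets and glutathione, from -0.09 to 0.63 for ER chaperones and from 0.29 to 0.72 for amino acid transporters; up to 5 members described in the text, those with the smallest adjusted p, are named.

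Chaperones of the endoplasmic reticulum (ER) were higher in ACLY-Cyto in 1 mM for 17 of 21 measured genes, and in 10 mM for 1, with 5 lower there. Unfolded proteins in the ER activate the sensors PERK, IRE1 and ATF6, which raise chaperones, degradation factors and secretory transport. Among these chaperones and folding enzymes the difference between media was higher for 15 and lower for none, with medians of -0.09 in 10 mM and 0.63 in 1 mM. Hyou1, a large ER chaperone, lay at 6.71, 6.58, 6.59 and 6.70 in ACLY WT and 6.70, 6.71 and 6.73 in ACLY-Cyto in 10 mM, where the groups overlapped. Under 1 mM glucose it lay at 9.03, 9.02, 8.98 and 8.67 in ACLY WT and at 10.27, 10.52, 10.34 and 10.28 in ACLY-Cyto. Its difference was 1.36 ± 0.11 (adjusted p = 2.15e-10). Hspa5, which encodes BiP, changed from -0.02 to 1.04, and Hsp90b1, the ER form of HSP90, from -0.08 to 1.15 (difference 1.23 ± 0.16). Dnajc3, a co-chaperone of BiP, rose by 0.99 ± 0.11, and the lectin chaperone Calr by 1.13 ± 0.14, from -0.50 in 10 mM to 0.63 in 1 mM. Relative to KO cells, the list's median in 1 mM was 1.52 in ACLY WT and 2.24 in ACLY-Cyto, against 0.28 and 0.19 in 10 mM, so the list's median stood above KO in both constructs.

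The ER stress response element, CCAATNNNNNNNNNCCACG on either strand, was present in 7 of the 13 called members that had a promoter entry, in 1 of the 5 others (Canx, not called at 0.12 but called after quantile normalisation at 0.36), and in 0.163% of all shared genes with one. The 3 with the smallest adjusted p are shown with the whole motif in capitals, from 130 bases before the start for Dnajc3 (chr14:118937802-118937871, plus strand), 187 for Calr (chr8:84847049-84847118, minus strand) and 237 for Hsp90b1 (chr10:86705612-86705681, minus strand). Calr has it on the strand opposite to the gene and the other two on the gene's own strand.
Dnajc3: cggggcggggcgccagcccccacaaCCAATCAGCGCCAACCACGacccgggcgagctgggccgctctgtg
Calr: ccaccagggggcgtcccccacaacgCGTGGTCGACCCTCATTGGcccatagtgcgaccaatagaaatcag
Hsp90b1: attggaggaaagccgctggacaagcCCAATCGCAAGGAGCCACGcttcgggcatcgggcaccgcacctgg

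The sensors, transport and degradation genes of the ER followed. Among 17 genes of the unfolded protein response sensors and of ER translocation and vesicle transport, 13 were higher and none was lower (medians 0.08 in 10 mM and 0.46 in 1 mM). Eif2ak3, which encodes PERK, rose by 1.15 ± 0.11 (adjusted p = 5.42e-09). The translocon subunit Ssr3 rose by 0.77 ± 0.09, and the COPII coat gene Sec24d by 0.96 ± 0.12. Of 13 genes of ER-associated degradation 7 were higher (11 with library weights) and 2 lower (1 without ACLY-Cyto replicate 2 in 10 mM). Herpud1 and the ubiquitin ligase Syvn1 were lower in ACLY-Cyto in 10 mM (-0.41 and -0.29) and higher in 1 mM (0.64 and 0.27), and Derl2 changed from -0.10 to 0.52. Vcp, the ATPase that extracts substrates, went the other way, from 0.33 to -0.01 (difference -0.34 ± 0.07, adjusted p = 1.98e-04).

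Hexosamine synthesis and N-glycan assembly, which link glucose to protein folding, rose in 11 of 22 measured members and fell in none. Without ACLY WT replicate 2 in 1 mM 2 members were lower, and 1 was without ACLY WT replicate 1 or 3 or ACLY-Cyto replicate 1 in 10 mM. Gfpt1, the entry enzyme of the hexosamine pathway, lay at 7.35, 7.29, 7.25 and 7.10 in ACLY WT and 6.77, 6.88 and 6.70 in ACLY-Cyto in 10 mM. In the 1 mM medium it lay at 7.62, 7.08, 7.59 and 7.49 in ACLY WT and 7.90, 8.19, 8.03 and 8.06 in ACLY-Cyto. The order of the constructs was reversed, with a difference of 1.06 ± 0.14 (adjusted p = 9.47e-07). The oligosaccharyltransferase subunits Stt3b and Rpn1 had differences of 0.52 ± 0.07 and 0.80 ± 0.13. Cytosolic heat shock genes were mixed, with 6 of 18 higher and 4 lower (2 after quantile normalisation): Dnajb1, Hsph1 and Hspb8 rose by 1.35 ± 0.13, 1.32 ± 0.18 and 0.91 ± 0.10, whereas Hsp90ab1 fell by 0.62 ± 0.08.

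Sterol synthesis, a main use of cytosolic acetyl-CoA, was higher in ACLY-Cyto than in ACLY WT in both media. Of 21 measured enzymes, 15 were higher in 10 mM and 18 in 1 mM, and none was lower in either. The difference between media passed the test upward for 7 and downward for 1 (2 without ACLY WT replicate 2 or ACLY-Cyto replicate 1 in 1 mM), with medians of 0.47 in 10 mM and 0.60 in 1 mM. Fdps, which makes farnesyl diphosphate, lay at 7.11, 7.22, 7.03 and 7.21 in ACLY WT and 7.71, 7.62 and 7.73 in ACLY-Cyto in 10 mM. At 1 mM glucose it lay at 6.43, 6.99, 6.18 and 6.43 in ACLY WT and at 8.40, 8.14, 8.29 and 8.33 in ACLY-Cyto. The groups were apart in both media and the gap was wider in 1 mM (difference 1.24 ± 0.18, adjusted p = 4.28e-06). Relative to KO cells, Fdps was lower in ACLY WT in both media, at -0.81 in 10 mM and -1.87 in 1 mM. In ACLY-Cyto the values were -0.26 and -0.08, neither past the threshold.

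Lss and Cyp51, which form lanosterol and remove its methyl group, rose by 1.56 ± 0.25 and 0.78 ± 0.10. Sc5d, a late desaturase, had a difference of 0.48 ± 0.14 (adjusted p = 0.0114) that did not pass without ACLY-Cyto replicate 2 in 10 mM. Sqle, which oxidises squalene, had effects of 0.61 and 0.69, with no called difference. Without ACLY-Cyto replicate 2 in 10 mM, 4 members of the list were higher.

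Genes of sterol efflux driven by the liver X receptors (LXR) moved the other way, with 5 of 11 lower and none higher (medians 0.31 in 10 mM and -0.15 in 1 mM). Abca1, the main cholesterol exporter, lay at 6.90, 6.80, 6.93 and 6.53 in ACLY WT and 8.30, 8.48 and 8.23 in ACLY-Cyto in 10 mM. In 1 mM it lay at 6.90, 6.00, 6.89 and 6.87 in ACLY WT and 7.07, 7.36, 7.27 and 7.20 in ACLY-Cyto. ACLY-Cyto was higher in both media, by 1.55 and then by 0.56 (difference -0.99 ± 0.25, adjusted p = 0.00281). Pltp, a phospholipid transfer protein, was lower in ACLY-Cyto in both media (-0.33 and -1.42), Abca7 changed from 0.31 to -1.14, and Lpcat3, which remodels phospholipids, from -0.09 to -0.72.

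Fatty acid genes were split, with 4 of 19 higher and 4 lower. Fasn, the fatty acid synthase, lay at 8.31, 8.24, 8.48 and 8.29 in ACLY WT and 9.28, 9.11 and 9.03 in ACLY-Cyto in 10 mM. With 1 mM glucose it lay at 8.50, 8.53, 8.43 and 8.40 in ACLY WT and at 8.45, 8.24, 8.06 and 8.13 in ACLY-Cyto, where 1 ACLY-Cyto library lay within the ACLY WT range. The difference was -1.06 ± 0.12 (adjusted p = 1.16e-07). Elovl5, which elongates polyunsaturated fatty acids, went from -0.28 to 0.69 (difference 0.97 ± 0.09). The desaturases Fads1 and Fads2 moved apart, with differences of 0.34 ± 0.06 and -0.37 ± 0.08. Acaca, the acetyl-CoA carboxylase, had effects of 0.46 and 0.52 and no called difference.

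Glycolysis had the lowest list median. Of 16 measured genes 13 were lower and 1 was higher, and the median effect was 0.18 in 10 mM and -0.38 in 1 mM. Pfkp, the platelet form of phosphofructokinase, lay at 5.76, 5.73, 5.65 and 5.80 in ACLY WT and 6.19, 6.21 and 6.13 in ACLY-Cyto in 10 mM. The 1 mM values were 5.46, 5.14, 5.18 and 5.34 in ACLY WT and 4.62, 4.28, 4.59 and 4.63 in ACLY-Cyto. The groups were apart in both media in opposite orders, with a difference of -1.19 ± 0.12 (adjusted p = 1.05e-08). Gpi1, the next enzyme upstream, also changed direction (0.39 and -0.65, difference -1.04 ± 0.12).

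Other steps fell in 1 mM from effects near zero or above it in 10 mM. Pfkm, the muscle form, went from -0.10 to -0.80 (difference -0.70 ± 0.08), and the pyruvate kinase gene Pkm from 0.14 to -0.64 (difference -0.78 ± 0.10). Gapdh, Tpi1 and Ldha had differences of -0.92, -0.80 and -0.65. Pfkfb3, which makes the activator fructose 2,6-bisphosphate, was the higher member (0.15 and 0.79, difference 0.63). Its call was lost without ACLY WT replicate 2 in 1 mM (0.54), ACLY WT replicate 1 in 10 mM (0.58), or ACLY-Cyto replicate 2 (0.59) or 4 (0.61) in 10 mM. Among genes of glucose uptake and its control, the arrestin Arrdc4 was higher (0.01 and 1.75) and the hexokinase Hk1 lower (0.22 and -0.15), and Slc2a1, the main glucose transporter, had a difference of -0.19 that did not pass (-0.24, and called, without ACLY WT replicate 4 in 10 mM). Arrdc4 was expressed at a low level in ACLY WT in 1 mM, at 0.51 to 1.09. In the pentose phosphate pathway, which branches from glycolysis, 4 of 8 genes were higher and none was lower (1 without ACLY WT replicate 3 in 1 mM). Rpia and Prps1, which lead to ribose 5-phosphate and its activated form, rose by 0.88 ± 0.18 and 0.69 ± 0.11.

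**Figure D5:**
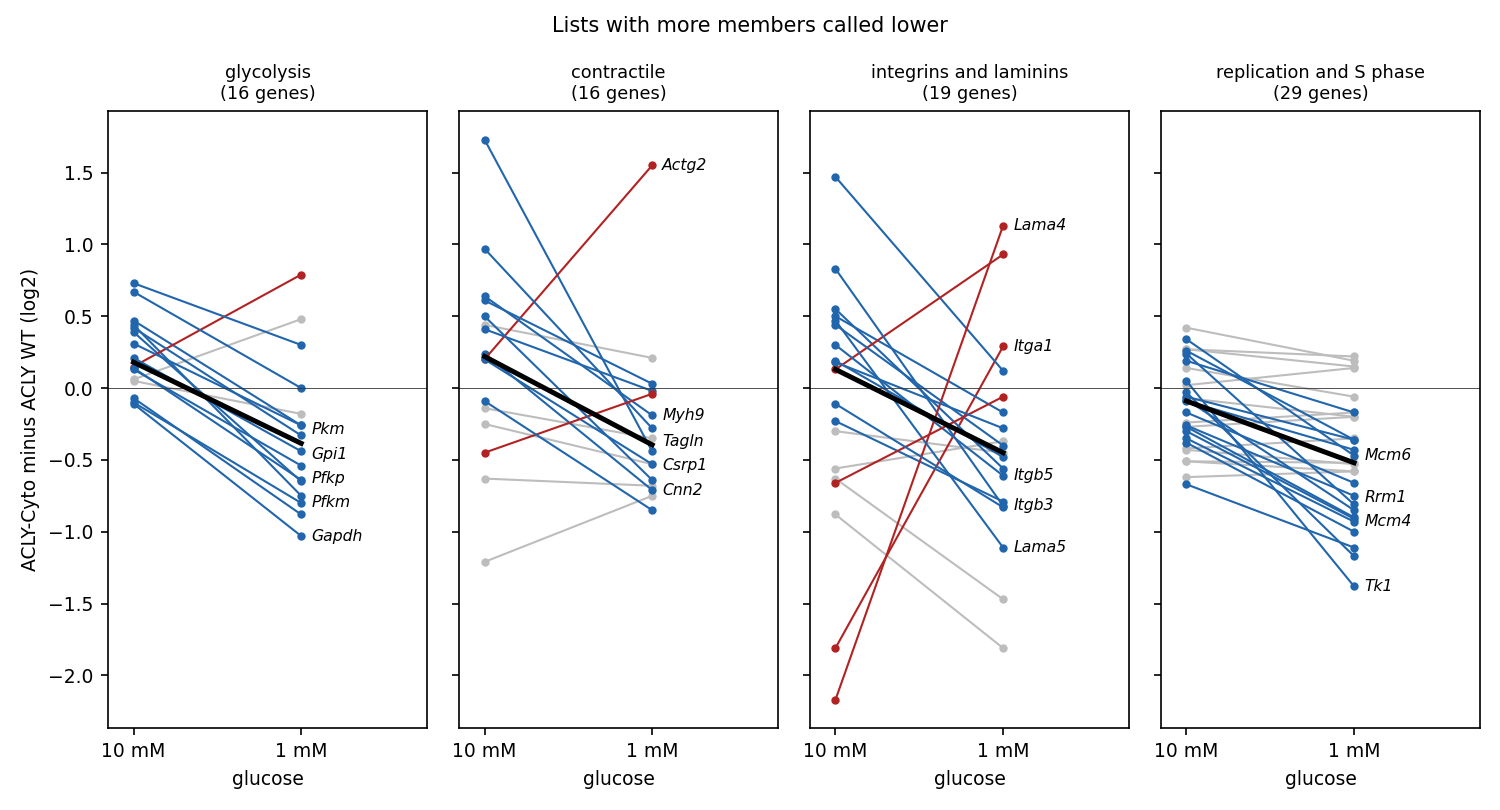
Lines join each member's ACLY-Cyto minus ACLY WT (y, log2) in 10 mM and 1 mM glucose (x) for 4 lists; blue lines are members called lower, red lines members called higher, grey lines members not called, and the black line is the list's median. The median goes from 0.18 to -0.38 for glycolysis, from 0.22 to -0.40 for contractile genes, from 0.13 to -0.45 for integrins and laminins and from -0.09 to -0.52 for replication; up to 5 members described in the text, those with the smallest adjusted p, are named.

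Contractile genes, which mark the myofibroblast state, were more often higher in ACLY-Cyto in 10 mM (8 of 16, and 3 lower) and more often lower in 1 mM (9, and 1 higher). The difference was lower for 9 and higher for 2 (4 after quantile normalisation and 1 without the libraries numbered 4 in 10 mM), with medians of 0.22 and -0.40. Tagln, an actin-binding protein of smooth muscle, lay at 4.39, 4.80, 4.59 and 4.56 in ACLY WT and 6.09, 6.31 and 6.55 in ACLY-Cyto in 10 mM. Under 1 mM glucose it lay at 3.78, 4.06, 3.38 and 3.64 in ACLY WT and 3.22, 2.93, 3.72 and 3.22 in ACLY-Cyto, with overlap. The difference was -2.17 ± 0.22 (adjusted p = 7.68e-09). Csrp1 and Cnn2, cytoskeletal proteins, changed direction (0.50 and -0.64, and 0.24 and -0.71). Myh9, non-muscle myosin, had effects of 0.64 and -0.19, a difference of -0.83 that was not called after quantile normalisation (-0.43). Acta2, the defining myofibroblast actin, was lower in both media (-0.63 and -0.68) with a difference of -0.05 that was not called. After quantile normalisation that difference was 0.33 and was called (adjusted p = 0.00993, limma). Actg2, another smooth muscle actin, had a higher difference (0.20 and 1.55).

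The TGF-beta list, which drives that state, held 8 lower and 2 higher of 22 measured members, Grem1 among the lower. Tgfb1, the ligand, overlapped in 10 mM (4.31, 4.13, 4.51 and 4.59 in ACLY WT and 4.27, 4.52 and 4.58 in ACLY-Cyto). In the 1 mM medium it lay at 5.44, 5.58, 5.47 and 5.45 in ACLY WT and at 4.30, 3.94, 4.15 and 4.14 in ACLY-Cyto. The difference was -1.43 ± 0.16 (adjusted p = 9.16e-08). Its receptor gene Tgfbr2 fell by 0.61, and the target Tgfbi fell by 2.74, from 1.36 to -1.38. Tgfbi was expressed at a low level, at 0.50 or below in every ACLY WT library, and its difference was -1.24 when 1 was added on the linear scale. Tgfbr2 was not called with only the ACLY-Cyto and ACLY WT libraries. Ltbp2, a binding protein of the microfibrils, was one of the higher members (-0.05 and 2.83, difference 2.87 ± 0.27).

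Integrins and laminins, which join cells to the matrix, were lower in 11 of 19 measured members and higher in 4, with medians of 0.13 and -0.45. Itgb3, the beta chain of the vitronectin receptor, lay at 5.41, 5.32, 5.39 and 5.26 in ACLY WT and 6.33, 6.09 and 6.11 in ACLY-Cyto in 10 mM. At 1 mM glucose it lay at 4.54, 4.43, 4.61 and 4.68 in ACLY WT and 3.73, 3.60, 3.81 and 3.84 in ACLY-Cyto. The order was reversed, with a difference of -1.65 ± 0.11 (adjusted p = 4.18e-12). Itgb5 (0.30 and -0.61), Itga3 (0.55 and -0.56) and Lama5 (0.47 and -1.11) moved alike. The higher members were Lama4 and Itga1, described above, with Lamb2 (-0.66 and -0.06) and Itga11 (0.13 and 0.93).

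Collagens were lower in ACLY-Cyto in both media, and lower still in 1 mM. Of 18 measured genes 13 were lower in 10 mM and 14 in 1 mM, and the difference passed the test downward for 11 and upward for 3 (medians -0.45 and -0.79). After quantile normalisation 6 were lower and 5 higher. Col5a1, a fibril-regulating chain, lay at 10.71, 10.77, 10.77 and 10.81 in ACLY WT and 10.60, 10.54 and 10.49 in ACLY-Cyto in 10 mM. In 1 mM it lay at 11.26, 11.31, 11.27 and 11.18 in ACLY WT and at 10.06, 10.00, 9.92 and 9.90 in ACLY-Cyto. The groups were apart in both media, and the difference was -1.07 ± 0.07 (adjusted p = 5.41e-12). Col4a1 of basement membranes showed -0.81 and -1.57 (difference -0.75 ± 0.10). Col1a1 showed -0.24 and -1.25 (difference -1.01 ± 0.10), and its difference became -0.22 and was not called after quantile normalisation. Col18a1 of basement membranes had a higher difference (0.13 and 1.29).

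Enzymes that process collagen fell in 7 of 18 measured genes and rose in 2 (4 with library weights). Plod2, a lysyl hydroxylase, showed -0.71 and -1.75 (difference -1.04 ± 0.14), and Bmp1, the procollagen C-proteinase, -0.00 and -1.03 (difference -1.03 ± 0.08). Elastic fibre and matrix glycoprotein genes were lower in 8 of 17 (5 after quantile normalisation) and higher in 3. Igfbp7 fell from 0.18 to -1.35 (difference -1.53 ± 0.13). Postn, which encodes periostin, went the other way: it lay at 9.38, 9.28, 9.33 and 9.26 in ACLY WT and 8.44, 8.43 and 8.59 in ACLY-Cyto in 10 mM. With 1 mM glucose it lay at 8.40, 8.16, 8.31 and 8.28 in ACLY WT and at 9.16, 9.11, 9.18 and 9.31 in ACLY-Cyto. The order was reversed, with a difference of 1.73 ± 0.09 (adjusted p = 2.44e-14).

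Proteoglycan and hyaluronan genes were lower in 8 of 16 and higher in 3. Dcn, the small proteoglycan decorin, was higher in ACLY-Cyto in both media but less so in 1 mM (2.01 and 1.10, difference -0.91 ± 0.17). Gpc1, a cell-surface heparan sulfate proteoglycan, went from 0.87 to 0.02. Matrix proteases and their inhibitors were lower in 11 of 23 and higher in 3. Mmp9, a gelatinase, changed from -1.03 to 0.84 (difference 1.88 ± 0.15), and Plat, tissue plasminogen activator, from -0.32 to -1.37 (difference -1.05 ± 0.12).

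Replication genes were lower in ACLY-Cyto for 20 of 29 measured genes in 1 mM and for 10 in 10 mM. Of the 29, 16 had a lower and none a higher difference, with medians of -0.09 in 10 mM and -0.52 in 1 mM. Tk1, the thymidine kinase of S phase, lay at 5.52, 5.75, 5.54 and 5.79 in ACLY WT and 5.81, 5.63 and 5.66 in ACLY-Cyto in 10 mM, where the groups overlapped. The 1 mM values were 4.03, 4.14, 3.82 and 4.23 in ACLY WT and 2.37, 2.54, 2.76 and 3.01 in ACLY-Cyto. Its difference was -1.44 ± 0.21 (adjusted p = 5.73e-06). The replicative helicase subunits Mcm6 and Mcm4 fell by 0.82 ± 0.09 and 0.58 ± 0.08, and the ribonucleotide reductase subunit Rrm1 fell by 0.77 ± 0.13. Ccnd1, which encodes cyclin D1 of G1 phase, changed direction, from 0.65 to -0.21 (difference -0.87 ± 0.08, adjusted p = 8.19e-10).

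Genes of G2 and mitosis fell in 11 of 24 and rose in 1 (none without ACLY-Cyto replicate 1 in 10 mM), with medians of -0.24 and -0.62. Aurkb, the kinase of the chromosomal passenger complex, went from -0.36 to -1.09 (difference -0.73 ± 0.14), and Birc5, its partner survivin, from -0.08 to -0.79. Cdk1 and Ccnb1, at 0.09 and -0.20, did not pass the test. In bulk RNA, fewer cells in a phase and less RNA per cell cannot be told apart.

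Complement genes other than C3 were split, with 4 of 8 measured members higher, C3 included, and 2 lower. C1s1, a protease of the classical pathway, changed from -0.58 to 0.45 (difference 1.03 ± 0.11) and C4b from 0.99 to 3.56. C4b was expressed at a low level in 10 mM, at 0.02 to 2.17 over both constructs. Cd55, which restrains complement on the cell surface, fell from 0.15 to -1.05 (difference -1.19 ± 0.12). C1s1 and C4b have close copies in the mouse, so their reads may be split. Secreted inflammatory factors were lower in 6 of 13 and higher in 2. Ccl2, a monocyte chemokine, was higher in ACLY-Cyto in both media, but by 2.93 in 10 mM and 1.17 in 1 mM (difference -1.76 ± 0.21). Ptgs2, which makes prostaglandins, went the other way, from 1.06 to 2.90 (difference 1.84 ± 0.29), as did Csf1, from 0.50 to 1.13. Nfkbia, which encodes an inhibitor of NF-kappaB, changed from 0.57 to -0.36.

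Wnt and insulin-like growth factor genes were lower in 13 of 23. The 2 members called higher were lost after quantile normalisation and without ACLY WT replicate 2 in 1 mM, ACLY WT replicate 1 in 10 mM or ACLY-Cyto replicate 4 in 10 mM. The receptor gene Fzd2 went from 0.08 to -1.20 (difference -1.28 ± 0.11), the ligand gene Wnt10b from 0.94 to -0.60, and the target gene Ccn4 from 1.22 to -0.11. Axin2, another target, went from 0.39 to -2.17 at a low level, with libraries between -1.87 and 1.36. Its difference of -2.56 was -1.08 when 1 was added on the linear scale. Igfbp4, which binds insulin-like growth factors, fell by 0.83 ± 0.14. Lysosomal genes were lower in 10 of 24 and higher in 2 (1 without ACLY WT replicate 4 in 10 mM).

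Mitochondrially encoded genes were higher in ACLY-Cyto in 10 mM for 6 of 13 and lower in 1 mM for 9, with none called the other way. All 13 had a negative difference and 8 passed the test, with medians of 0.16 and -0.33; 5 passed after quantile normalisation. mt-Nd2, a subunit of complex I, lay at 10.47, 10.46, 10.47 and 10.41 in ACLY WT and 10.92, 11.04 and 11.08 in ACLY-Cyto in 10 mM. Under 1 mM glucose it lay at 8.66, 8.44, 8.66 and 8.59 in ACLY WT and 7.92, 7.94, 8.18 and 7.94 in ACLY-Cyto. The order was reversed, with a difference of -1.15 ± 0.11 (adjusted p = 1.77e-09). mt-Nd1 (0.38 and -0.58) and mt-Cytb (0.37 and -0.28) moved alike; the difference of mt-Cytb was -0.65, or -0.35 after quantile normalisation. These transcripts come from 1 genome and also have nuclear copies.

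The remaining lists had calls in both directions or few calls. Fatty acid oxidation genes were lower in 5 of 18 and higher in 2 (4 with library weights). Targets of YAP and TEAD were lower in 5 of 18 (8 with library weights) and higher in 1. Of 28 acetyltransferase and deacetylase genes, whose products use or remove the acetyl group that ACLY supplies, 4 were lower (2 without the libraries numbered 4 in 10 mM). That is 14.3%, near the 15.5% of all genes. In the same list 2 were higher (1 without ACLY WT replicate 1 in 10 mM), and the median difference was 0.05. For ERK feedback 4 of 16 were higher and 1 lower, and without ACLY WT replicate 2 in 1 mM 3 were higher and 3 lower. Among CDK inhibitors, D cyclins and p53 targets 5 of 21 were higher and 5 lower, and 2 were higher without ACLY WT replicate 1 in 10 mM or ACLY-Cyto replicate 2 in 1 mM. Counts for the citric acid cycle, SREBP control, lipid droplets, the hypoxia response, iron genes and immediate early genes also moved by over 1.5 times when 1 library was left out, so no direction is given for them.

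Whether these patterns set ACLY-Cyto apart from the nuclear construct was tested directly, as the difference between media of ACLY-Cyto minus ACLY-Nuc. That contrast was called for 2261 of 11931 genes (19%; 9.48% higher and 9.47% lower). It shares the ACLY-Cyto samples with the main one. Acly itself was called in the contrast with ACLY-Nuc, at 0.91 ± 0.12 (adjusted p = 1.41e-06 by limma), against 0.41 in the main contrast. For Acly every ACLY-Nuc library lay below every ACLY-Cyto library in both media. The part of this gap in construct level in the counts that follow was not tested. Interferon-stimulated genes were higher in 9 of 16 (median 0.77), NRF2 targets and glutathione in 9 of 16 (median 0.44), and MHC class I genes in 6 of 12, with none lower in any of these lists. Ifit3 differed from ACLY-Nuc by 1.43 ± 0.22 (adjusted p = 1.56e-05), whereas Ifit1 at 0.31 ± 0.31 did not pass the test (adjusted p = 0.555). Hmox1 differed by 2.72 ± 0.13 and Slc7a11 by 1.69 ± 0.21. Glycolysis was lower in 12 of 16 and higher in none, G2 and mitosis lower in 15 of 24, replication in 12 of 29 and mitochondrially encoded genes in 9 of 13. Tagln differed by -2.09 ± 0.22 (adjusted p = 3.13e-08) and Grem1 by -1.91 ± 0.10.

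ER chaperones did not separate the 2 localised constructs in this way. None of the 21 genes was called in either direction, and the median was 0.04. Hyou1 differed from ACLY-Nuc by 0.21 ± 0.11 (adjusted p = 0.207), although it rose in ACLY-Cyto against ACLY WT by 1.36 as given above. Sterol synthesis had 2 higher and 1 lower of 21, with a median of -0.04, and Fdps differed by 0.34 ± 0.18 (adjusted p = 0.215). A missed threshold does not show that the constructs acted alike. ACLY-Nuc minus ACLY WT also differed between media, for 1225 of 11931 genes, and shares the ACLY WT samples. Acly was among the genes called in that contrast, at -0.50 ± 0.11 (adjusted p = 0.00407 by limma). There 14 of 21 ER chaperones were higher and none lower (median 0.79), and 7 of 21 sterol genes higher and 1 lower. Of 17 genes of the unfolded protein response sensors and ER transport 9 were higher, and of 13 of ER-associated degradation 7, with none lower. Of 22 hexosamine and N-glycan genes 8 were higher and none lower, and of 18 collagens 10 lower and none higher. The share of all genes called in each direction was not computed for this contrast, so these list counts stand without one. Hyou1 rose by 1.15 ± 0.11 and Ifit1 by 1.87 ± 0.30, so these rises were not particular to ACLY-Cyto. Nor were several of the highest and lowest differences. C3 rose by 1.93 ± 0.41 there and Ptx3 by 1.29 ± 0.13, while Pmepa1, Thbs2 and Tmem119 were called at -1.03, -0.86 and -1.09. Lama4, Lpar4, Itga1, Grem1, Col8a1, Sertad4 and Ctxn1 were also called, in the direction of the main contrast. Hmox1, Slc1a3, Adamts9 and Rps6-ps4 did not pass the test there.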

How the data were processed

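RNA was sequenced from 32 samples. Per the submitters' processing notes, kallisto, edgeR, limma and build GRCm39 were used, with roles and versions not given in the sources used here. For each medium the authors deposited 1 table of normalised log2 expression values, on a scale close to log2 CPM. Counts and depth are not given, so no counting error is stated. The lowest values are -3.293 and -3.592. In both tables, 1 entry without a gene symbol was left out.

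A linear model of 8 group means over 31 libraries was fitted to the 11931 shared genes with limma 3.58.1 (R 4.3.3; moderated variance with an intensity trend; no filter). All contrasts, including the effects within a medium fitted on each whole table, were adjusted by Benjamini-Hochberg over all genes at 0.05. The ± values are standard errors. The contrasts with ACLY-Nuc were added after the data were seen. On data simulated for the difference between media of ACLY-Cyto minus ACLY WT (11931 genes, 10 draws of 200 changed genes), 30.3%, 75.1% and 93.2% of changes of 0.5, 1 and 2 (log2) were recovered, and 5.84% of calls were false. The simulated noise was normal and independent between genes, with no batch effect and no other construct effect. Far fewer genes changed there than were called in the data, so these rates describe that setting and not the calls made here.

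Genes, lists and members were chosen with earlier results of these data known. Named were Acly; the 8 highest and 8 lowest called differences at or above the median level whose groups did not overlap in at least 1 medium, passing over predicted genes; and, for each list, at most 4 called genes taken in order of adjusted p. Other list members (37 of the 155 genes in the text) were named after their values were seen, and some genes, of the rule and of the lists, are not reported here; list counts include them.

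Promoter motifs were read with a script from the RefSeq table (GRCm38.p6). Alternatives were other scalings, quantile normalisation, an added pseudocount of 1, a minimum level, library weights, fewer libraries, removal of a length trend, a replicate block, and leaving out each library. Figures were drawn with matplotlib.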

Additional observations from a re-analysis of the deposited data

Results flagged for a closer look

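The construct effect itself differed between media, by limma's test of the difference, for 3545 genes, and 435 of these were called in opposite directions in the 2 media. Of the 155 genes named in the text, 142 had a called difference, which the rule required of most of them, and 42 had opposite calls in the 2 media.

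Single libraries lay far from the rest of their group, by Dixon's criterion, in 41 of 465 groups of 4 examined for those 155 genes, where chance gives about 5%. ACLY WT replicate 2 in 1 mM accounted for 18 of them. There (log2 levels, with the range of the other libraries) it was high for Irf9 (5.21 against 4.98 to 5.01), Mthfd2 (8.18 against 7.76 to 7.81), Derl2 (6.68 against 6.21 to 6.26), Pltp (8.81 against 8.54 to 8.57), Rpia (5.33 against 4.71 to 4.81), Igfbp7 (8.46 against 8.25 to 8.26), Birc5 (4.09 against 3.57 to 3.63), Phgdh (9.28 against 8.61 to 8.68), Psat1 (8.96 against 8.75 to 8.78) and Shmt2 (9.25 against 8.92 to 8.97). It was low for Pmepa1 (6.66 against 7.00 to 7.04), Aldh1l2 (8.32 against 9.03 to 9.18), Sc5d (4.98 against 5.34 to 5.40), Abca1 (6.00 against 6.87 to 6.90), Fads1 (8.15 against 8.33 to 8.35), Ccn4 (7.75 against 8.21 to 8.31), Tgfbr2 (6.52 against 7.35 to 7.44) and Itga11 (5.30 against 5.89 to 5.93). ACLY WT replicate 4 in 1 mM lay at 8.67 for Hyou1 (others 8.98 to 9.03) and at 5.48 for Lss (4.79 to 4.89).

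In 10 mM, ACLY WT replicate 4 was apart in 8 cases. These were Irf9 (4.05 against 4.22 to 4.25), Hsp90b1 (10.36 against 10.26 to 10.27), Pltp (7.93 against 7.84 to 7.85), Plod2 (5.93 against 6.17 to 6.20), Igfbp7 (8.59 against 8.37 to 8.39), mt-Nd2 (10.41 against 10.46 to 10.47), Psat1 (8.92 against 8.71 to 8.74) and Shmt2 (8.29 against 8.19 to 8.20). ACLY WT replicate 1 was apart for Fads2 (8.27 against 8.32 to 8.33), Nfkbia (4.29 against 4.81 to 4.84) and Ccnb1 (6.72 against 6.56 to 6.57). Replicate 3 was apart for G6pdx (6.66 against 6.24 to 6.30), and replicate 2 for Acss2 (4.07 against 3.72 to 3.75) and Rps6-ps4 (-2.96 against 3.93 to 4.97). Among ACLY-Cyto libraries in 1 mM, replicate 1 was apart for Arrdc4 (1.94 against 2.81 to 2.91). Replicate 2 was apart for Psmb9 (1.67 against 1.99 to 2.05), Pfkp (4.28 against 4.59 to 4.63), Prps1 (6.08 against 5.90 to 5.91) and Tgfbr2 (6.71 against 6.54 to 6.57), and replicate 3 for Slc1a3 (7.25 against 7.31 to 7.32) and mt-Nd2 (8.18 against 7.92 to 7.94). Several of these gaps are small because the other libraries lie close together.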

How the results depend on the processing

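The number of genes with a called difference between media was 3545 and lay between 3170 and 3698 when single libraries were left out. It was 3199 with only the ACLY-Cyto and ACLY WT libraries and 4727 with library weights; no alternative moved the counts over all genes by more than 1.5 times. With a replicate block (replicate number within a medium as a term) 3658 genes were called, 3403 of them also called without it. Deviations from the group mean correlated at -0.19 to 0.10 between same-numbered ACLY-Cyto and ACLY WT libraries. In 10 mM, ACLY-Cyto replicates 2 and 4 matched the ACLY WT library of their own number best, and in 1 mM no replicate did. These correlations do not settle whether the numbers pair the samples. Equal library medians moved the median of all genes to -0.03. Depth is unknown, so its effect on low genes could not be given.

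Of the 142 named genes with a called difference, 132 kept the call and direction under all 26 alternatives. The other 10 kept their direction. They were Sc5d (0.48 with only the ACLY-Cyto and ACLY WT libraries, 0.39 without ACLY-Cyto replicate 2 in 10 mM), Rps6-ps4 (-4.27 and, without ACLY-Cyto replicate 1 in 10 mM, -4.05, and, still called, -2.39 without ACLY WT replicate 2 in 10 mM), Tgfbr2 (-0.61 with only those libraries), and Myh9 and Col1a1 after quantile normalisation (-0.43 and -0.22). Gbp3, H2-K1 and Pfkfb3 were lost without the libraries given in the report, and G6pdx and Psph, nearest to the threshold, under 15 and 10 alternatives.

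Of the 13 named genes without a called difference, 5 changed sign, all from values near zero. Leaving out single libraries gave -0.13 to 0.05 for Acta2, -0.12 to 0.06 for B2m, -0.24 to 0.21 for Acaca, -0.02 to 0.04 for Nfe2l2 and -0.02 to 0.07 for Psat1. Acta2 became 0.33 and called after quantile normalisation, where B2m was 0.11. With library weights Acta2 was 0.01, B2m 0.05 and Acaca -0.19. Nfe2l2 was -0.00 with equal library medians, and without the libraries numbered 4 in 10 mM Nfe2l2 and Psat1 were -0.01.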
